A study of Rattus norvegicus with 192 samples.

Results

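Kidneys of rats killed 3 h after breathing phosphine (PH3) were compared with kidneys of rats killed 3 h after breathing air. The comparison took the 4 kidney arrays labelled PH3 and the 4 labelled Air at that time, 8 of the 32 kidney arrays and a small share of a series drawn from 59 rats, with every probe set except the Affymetrix controls. The animals were male Sprague-Dawley rats, and those of the PH3 group breathed the gas at 660 ppm for 25 min by whole-body exposure, a product of 16500 ppm times min that the labels call medium. The Air rats carried the same labels except for the exposure, no genotype or other agent was named, and all rats were killed under ketamine and xylazine. The other arrays cover 1, 6 and 24 h and also heart, lung, brain stem, blood and olfactory bulb. RNA was amplified from its 3′ end and read on Affymetrix rat arrays, 1 array per rat and tissue. In what follows the Air arrays are given in the order Rat355, Rat365, Rat400 and Rat490 and the PH3 arrays in the order Rat359, Rat361, Rat363 and Rat399. Levels are log2 intensities, and an effect is the PH3 mean minus the Air mean in log2 units, with its SE.

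Phosphine is used against insects in stored grain, and its best known target in the cell is complex IV of the respiratory chain. Cells of the proximal tubule of the kidney draw most of their energy from mitochondria, since they reabsorb glucose, phosphate and sodium against gradients. When mitochondria or protein synthesis falter, cells can switch on the integrated stress response, in which the transcription factor ATF4 raises genes such as Ddit3, Gdf15, Trib3 and enzymes that charge transfer RNAs. Immediate early genes are switched on within minutes of a stimulus and their transcripts decay quickly, and the adrenal hormone corticosterone acts on the kidney through the glucocorticoid receptor.

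The 8 arrays correlated with each other at 0.986 to 0.993 over all probe sets. Of 42 measured markers of tubules and podocytes, 30 were higher in all 8 kidney arrays than in all 40 other arrays taken at 3 h. They were 11 of 13 markers of the proximal tubule, 6 of 6 of the thick ascending limb and 5 of 5 of intercalated cells. In principal cells they were 5 of 8, in the distal tubule 2 of 4 and in podocytes 1 of 6. By the lists of the proximal tubule, thick ascending limb and intercalated cells the tissue label held. The 3′ index of the control probe sets, a sign of RNA quality, was 0.35 ± 0.06 in Air and 0.32 ± 0.052 after PH3 (SD, n = 4 each), and an exact permutation test gave p = 0.486, where 0.0286 was the smallest p the design allowed. By probe sets that followed the rat in other tissues, 7 of the 8 arrays matched their own rat best, with correlations of 0.703 to 0.878. The array labelled PH3 Rat363, the only array of that number, matched PH3 Rat368 at 0.922, a rat of the same exposure and time. Without that array 30 of the 94 calls given next were kept, and the genes described that lose their call without it are named beside their values.

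limma called 94 of 31042 probe sets, 0.303% of those tested, at a Benjamini-Hochberg adjusted p under 0.05. Of these, 81 were higher after PH3 (0.261% of those tested) and 13 were lower (0.0419%). The calls named 61 genes, 55 higher and 6 lower, while 23 called probe sets carried no gene name here and 1 carried several. The rises were mostly modest, with a median of 0.63, and 18 of the 81 exceeded 1 log2 unit, a doubling, while 26 were 0.5 or less. In 89 of the 94 the PH3 arrays did not overlap the Air arrays, which was so for 4.97% of all probe sets, with PH3 higher in 2.87% and lower in 2.11%. The largest rises and falls described below were taken from these 89, so their lack of overlap follows from that choice. The median effect over all probe sets was -0.01. Without adjustment, 3111 of the 31042 probe sets had a limma p under 0.05. Counts of list members at an unadjusted p are to be read beside that share. With 0.303% called, 0 calls in a short list do not show that its genes were unchanged. With each array left out in turn the count ran from 32 to 93, and it fell most without PH3 Rat363 (32), PH3 Rat361 (48) and Air Rat400 (48). It was 14 when the spread was estimated from the 3 h groups alone, a setting in which Olr1, Scarb1, Fkbp5, Slc20a1, Igfbp1, Tacc2 and Stc1 passed among the genes described with their arrays. It was 31 with the rat as replicate block, and 338 with the Air arrays of all 4 times as controls.

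**Figure D1:**
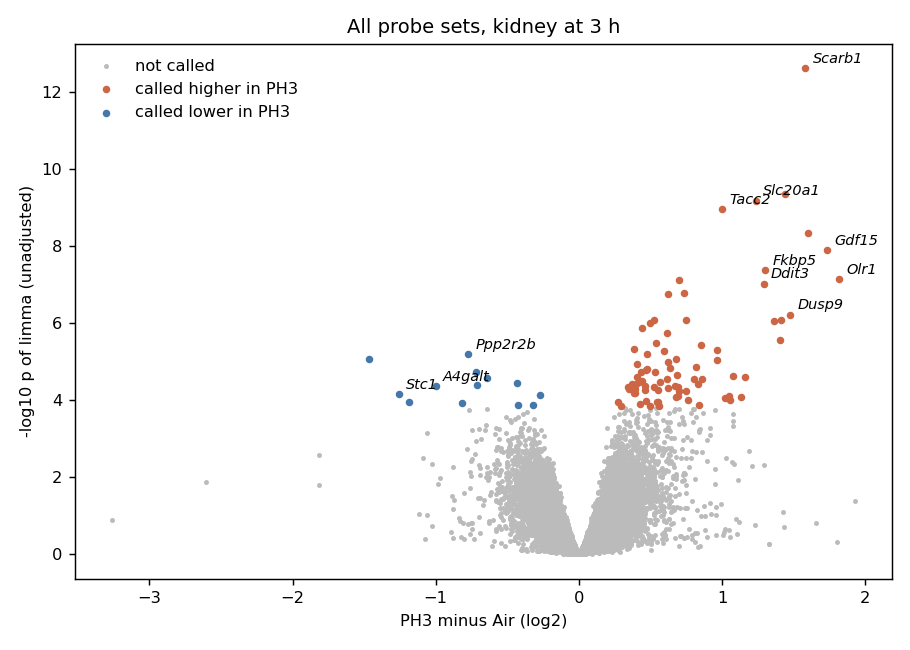
Each point is 1 of 31042 probe sets of the kidney at 3 h. The x axis gives PH3 minus Air in log2 units and the y axis the -log10 of limma's unadjusted p. Called probe sets are coloured, 81 higher and 13 lower, and Scarb1 stands at the top with an effect of 1.58.

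Scarb1, Olr1 and Scara5, grouped here after their values were seen, encode receptors of lipoproteins and other cargo. Scarb1 encodes the receptor that takes up cholesterol from HDL, Olr1 a receptor for oxidized LDL, and Scara5 a scavenger receptor that binds ferritin. Scarb1 had the smallest p of all probe sets and rose 3.00-fold, and Olr1 had the largest effect of the called probe sets that rose. Of the 20 measured genes of lipoprotein uptake and cholesterol transport, Scarb1 and Olr1 were the 2 called, and 4 had an unadjusted p under 0.05.

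The level of Scarb1 in the Air kidneys was 5.91, 5.66, 5.80 and 5.90, and after PH3 it was 7.38, 7.46, 7.43 and 7.33. The groups lay far apart, and each was tight. The effect was 1.58 ± 0.12 (limma, adjusted p = 7.4e-09), and it stayed between 1.53 and 1.61 with any array left out. A second probe set of Scarb1 gave 1.44 ± 0.15 (adjusted p = 6.8e-06). For Olr1 the Air arrays read 3.22, 3.08, 3.07 and 3.32 and the PH3 arrays 4.82, 5.42, 5.17 and 4.56. Every PH3 rat was above every Air rat. The Air values lie in the low part of the range of the table, where RMA compresses differences, so no fold is given. The effect was 1.82 ± 0.25 (adjusted p = 2.5e-04), with an adjusted p of 0.00344 at most when an array was left out. Both genes also passed with the 3 h groups alone and with the rat as replicate block.

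Scara5 read 3.85, 4.30, 3.45 and 3.74 in Air against 4.87, 4.55, 5.28 and 5.17 after PH3, an effect of 1.13 ± 0.25 (adjusted p = 0.0331). The groups did not overlap, but the call was lost with the 3 h groups alone (adjusted p = 0.182). It was also lost without Rat355, Rat400 or Rat490 of Air or Rat359, Rat363 or Rat399 of PH3 (adjusted p up to 0.165) and with the rat as replicate block (adjusted p = 0.0904). Stard5, which binds cholesterol inside the cell, rose by 0.38, a call lost without PH3 Rat363 and 5 other arrays (adjusted p up to 0.141). Over the 20 measured genes of lipoprotein uptake and cholesterol transport, 0 were called lower, and the median was 0.02. Abca1, the pump that loads cholesterol onto HDL, had an effect of 1.07 ± 0.34 that did not pass (adjusted p = 0.23). Of 19 genes of cholesterol synthesis limma called 0, and 1 had an unadjusted p under 0.05, with a median of 0.003, and Dhcr7, the last enzyme of the pathway, had the smallest p with 0.32 ± 0.15 (adjusted p = 0.466). A kidney extract holds many cell types, and more cells of a type and more RNA per cell cannot be told apart in these values.

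Genes of the integrated stress response formed the next group. Gdf15, a hormone secreted by stressed cells, and Ddit3, a transcription factor of prolonged stress, rose 3.33-fold and 2.45-fold, and Cars1, which charges transfer RNA with cysteine, rose by 0.48 ± 0.086 (adjusted p = 0.00691). Of the 30 measured members of the list, 3 were called higher and 0 lower. In all, 26 of the 30 were positive, with a median of 0.16 against -0.01 over all probe sets, and 11 had an unadjusted p under 0.05.

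Gdf15 read 6.87, 6.77, 6.66 and 7.21 in Air and 7.92, 9.08, 9.13 and 8.32 after PH3. No PH3 kidney reached down to the Air range, and Rat361 and Rat363 were the highest. The effect was 1.74 ± 0.22 (adjusted p = 6.5e-05). Ddit3 read 7.58, 7.05, 7.48 and 7.40 against 8.43, 9.09, 8.88 and 8.27, again with Rat361 and Rat363 on top and no overlap. Its effect was 1.29 ± 0.18 (adjusted p = 2.9e-04). Both calls held without any array and with the rat as replicate block, while with the 3 h groups alone Gdf15 (adjusted p = 0.0855) and Ddit3 (0.0777) no longer passed.

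Cars1 read 6.79, 6.75, 6.76 and 6.77 in Air and 7.20, 7.29, 7.37 and 7.11 after PH3. Its Air arrays were nearly equal and all PH3 arrays lay above them. Of its 4 probe sets 3 were called, at 0.48 to 0.74, and the call of the brightest was lost without PH3 Rat363 (adjusted p = 0.0552), with the 3 h groups alone (adjusted p = 0.166) and with the rat as replicate block. Trib3, a pseudokinase that ATF4 and Ddit3 induce, rose by 0.70 ± 0.15 in 1 of its 3 probe sets (adjusted p = 0.0254), with 2.94, 2.74, 2.85 and 3.03 in Air and 3.55, 3.87, 3.81 and 3.14 after PH3. The brightest set of the gene did not pass (0.33, adjusted p = 0.402). The Trib3 call was lost without Air Rat355, Rat365 or Rat400 or PH3 Rat359, Rat361 or Rat363 (adjusted p up to 0.149), with the 3 h groups alone (adjusted p = 0.276) and with the rat as replicate block. Atf4 itself was at 0.35 ± 0.087 (adjusted p = 0.0807), Asns, the asparagine synthetase, at 0.66 (adjusted p = 0.237), and Chac1, which degrades glutathione, at 0.61 (adjusted p = 0.224). Of 18 chaperones and other genes of endoplasmic reticulum stress limma called 0 (4 had an unadjusted p under 0.05), and 13 were negative with a median of -0.06.

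The promoters of these and other genes that rose are shown because the genes rose together and their transcription factors bind known letters. RefSeq gave promoters for 43 of the 55 genes that rose, on build GRCr8, and the 250 bases before each start were searched on both strands. Each window below is printed 5′ to 3′ on the strand of the gene, with up to 50 bases on each side of the match, and the capitals mark the match.
Olr1, AP-1 element: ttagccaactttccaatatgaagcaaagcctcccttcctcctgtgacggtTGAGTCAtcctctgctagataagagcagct
Ddit3, AP-1 element: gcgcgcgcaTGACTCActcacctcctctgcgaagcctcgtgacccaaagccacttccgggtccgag
Maff, cAMP response element: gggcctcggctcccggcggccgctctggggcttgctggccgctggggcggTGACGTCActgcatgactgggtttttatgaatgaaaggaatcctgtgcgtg
Trib3, CEBP-ATF element: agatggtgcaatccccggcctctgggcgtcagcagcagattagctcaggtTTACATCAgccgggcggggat
They lie at chr4:164634548-164634627 on the minus strand for Olr1, chr7:65001445-65001510 on the plus strand for Ddit3, chr7:112792686-112792786 on the plus strand for Maff and chr3:161275534-161275604 on the minus strand for Trib3, all upstream of the start of transcription. The match in Trib3 is read on the opposite strand.

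The share of promoters with each motif was set beside that of all genes. The CEBP-ATF element TGATGNAA, bound by heterodimers of ATF4 with C/EBP proteins, stood in 2 of the 43 promoters (4.65%; Trib3 and Abhd10) and in 3.58% of all 27457 genes with a promoter. The AP-1 element TGANTCA, bound by Fos and Jun proteins, stood in 3 (6.98%; Ddit3, Olr1 and Ifitm10) against 6.99%. The cAMP response element TGACGTCA stood in 2 (4.65%; Maff and Tubb2a) against 1.78%, and the E-box CACGTG in 5 (11.6%; Abhd10, Hnrnpdl, Maff, Pes1 and Pfkfb3) against 6.18%. In Abhd10 the E-box and the CEBP-ATF match share bases, and no other matches overlapped. These are matches of letters and no measure of binding.

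**Figure D2:**
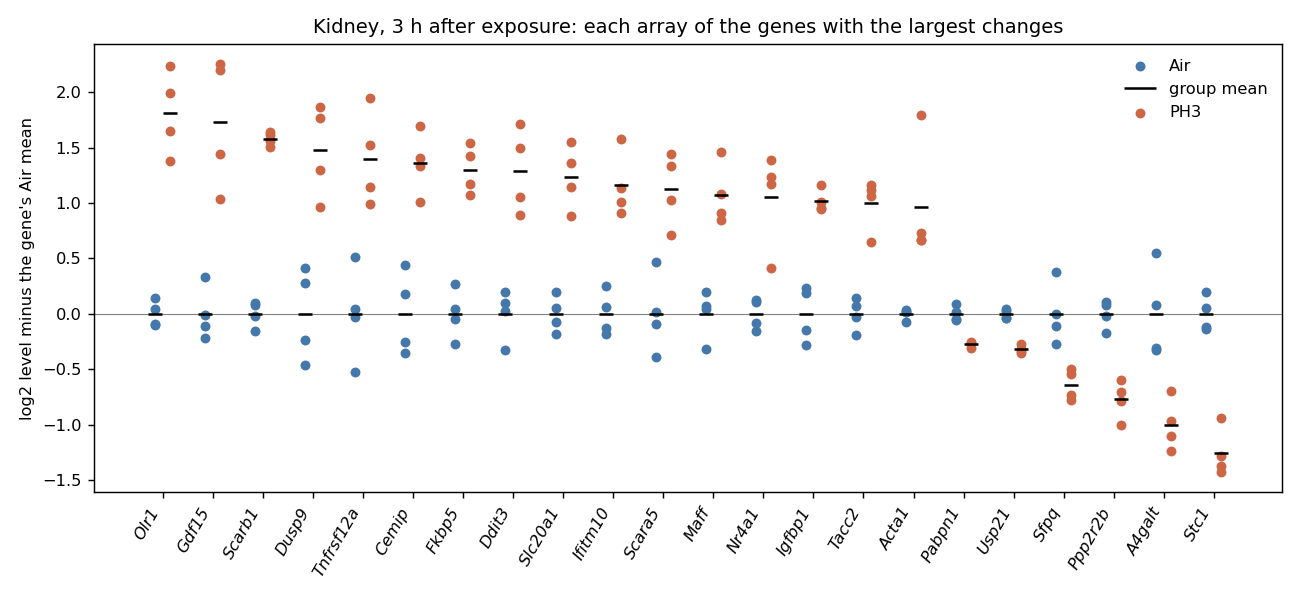
Each point is 1 kidney array at 3 h for the 16 largest rises and the 6 falls named by the rule, 4 Air and 4 PH3 per gene. The y axis is the log2 level minus that gene's Air mean, and the bars are group means. The rule took only genes whose PH3 arrays all lie beyond the Air arrays, so that trait was fixed by the choice. The widest gap between groups is in Scarb1 and Olr1.

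A small number of immediate early genes passed. Maff, a small partner of stress transcription factors, and Nr4a1, a nuclear receptor without a known hormone, rose 2.11-fold and 2.08-fold. Of the 25 measured members 2 were called higher and 0 lower, 20 were positive, 8 had an unadjusted p under 0.05, and the median was 0.26. Maff read 5.04, 5.16, 5.01 and 4.65 in Air and 5.81, 6.43, 6.05 and 5.87 after PH3, without overlap and with Rat361 highest, an effect of 1.08 ± 0.21 (adjusted p = 0.017). Nr4a1 read 5.93, 5.65, 5.90 and 5.72 against 6.22, 7.03, 7.19 and 6.97, so that Rat359 stood close to the Air rats. Its effect was 1.05 ± 0.23 (adjusted p = 0.0377).

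The Maff call was lost without PH3 Rat361, PH3 Rat363 or Air Rat490 (adjusted p up to 0.101) and with the 3 h groups alone (adjusted p = 0.0777). That of Nr4a1 was lost without any array except PH3 Rat359 (adjusted p up to 0.18) and with the rat as replicate block (adjusted p = 0.848). A probe set of Nr4a3, a close relative of Nr4a1, rose by 0.84 ± 0.19 (adjusted p = 0.0445), while its brightest did not pass (0.66, adjusted p = 0.124). That Nr4a3 call was lost without any array but PH3 Rat359 (adjusted p up to 0.206), with the 3 h groups alone (adjusted p = 0.408) and with the rat as replicate block. Atf3, the stress transcription factor, was at 1.07 ± 0.26 (adjusted p = 0.0792) and Fosb, a partner in AP-1, at 0.85 ± 0.22 (adjusted p = 0.1).

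Fkbp5, a chaperone partner that dampens the glucocorticoid receptor, stood out among the targets of that receptor. It read 7.63, 7.41, 7.31 and 7.09 in Air and 8.53, 8.79, 8.90 and 8.43 after PH3. The lowest PH3 kidney lay above the highest Air kidney. The effect was 1.30 ± 0.17 (adjusted p = 1.8e-04), a second probe set gave 1.60 ± 0.19 (adjusted p = 2.9e-05), and the call held in every alternative tried, although with the Air arrays of all 4 times as controls the effect was 0.83. No other of the 22 measured glucocorticoid targets was called, although 19 were positive with a median of 0.26. Of the 22, Fkbp5 included, 7 had an unadjusted p under 0.05. Among the members below that median, Sgk1, a kinase of sodium transport, was at 0.22 (adjusted p = 0.838), Per1, a clock gene, at -0.18 (adjusted p = 0.909), and Tsc22d3, an anti-inflammatory target, at 0.01 (adjusted p = 0.988).

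Igfbp1, which binds insulin-like growth factors and is induced in fasting, and Pfkfb3, which drives glycolysis, also passed. Igfbp1 read 8.71, 8.24, 8.75 and 8.37 in Air and 9.68, 9.53, 9.47 and 9.46 after PH3, with no overlap and an effect of 1.02 ± 0.22 (adjusted p = 0.0343). The call did not survive the loss of any array (adjusted p up to 0.113) or the rat as replicate block, yet it held with the 3 h groups alone (adjusted p = 0.0362). Pfkfb3 read 4.12, 4.15, 4.61 and 4.13 against 4.54, 5.04, 5.12 and 5.02, and Air Rat400 overlapped PH3 Rat359. Its effect was 0.68 ± 0.15 (adjusted p = 0.0327), lost without Air Rat355, Rat365 or Rat490 or PH3 Rat361, Rat363 or Rat399 (adjusted p up to 0.165). The call was also lost with array medians subtracted, with the 3 h groups alone (adjusted p = 0.311) and with the rat as replicate block. Pfkfb3 was the only member called among 22 genes of the hypoxia response (median 0.06) and among 15 of glucose metabolism (median 0.10), and its other probe set was at -0.04. An unadjusted p under 0.05 was found for 6 of the 22 and 3 of the 15.

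Slc20a1 and Slc20a2, sodium-phosphate cotransporters, rose, the second with a call that most alternatives ended, and Stc1, a hormone of calcium and phosphate made in the kidney, fell. Slc20a1 read 8.99, 8.84, 8.72 and 8.61 in Air and 9.94, 10.34, 10.16 and 9.67 after PH3. All PH3 kidneys were far above the Air kidneys, and the effect was 1.24 ± 0.13 (adjusted p = 6.8e-06), held in every alternative tried. Slc20a2 rose by 0.56 ± 0.12 (adjusted p = 0.0248), from 5.97, 6.06, 5.90 and 5.86 to 6.32, 6.62, 6.55 and 6.54, without overlap. The Slc20a2 call was lost without Air Rat355, Rat400 or Rat490 or PH3 Rat361, Rat363 or Rat399 (adjusted p up to 0.129), with the 3 h groups alone (adjusted p = 0.147) and with the rat as replicate block. Slc34a1, the main phosphate transporter of the proximal tubule and a member of another family, was at -0.13 ± 0.12 (adjusted p = 0.793).

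Stc1 read 8.34, 8.02, 8.0 and 8.20 in Air and 6.77, 6.71, 6.86 and 7.20 after PH3, the largest fall of a named gene at -1.26 ± 0.27 (adjusted p = 0.0293). No PH3 kidney reached the Air range, and a second probe set fell by 1.18. The fall passed with the 3 h groups alone (adjusted p = 0.0144) and with the rat as replicate block (adjusted p = 0.0159). It was lost without any array but PH3 Rat399 (adjusted p up to 0.129); the same held with the Air arrays of all 4 times as controls, where it was -0.72 (adjusted p = 0.224).

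Among genes of injury and of signalling, Tnfrsf12a, the receptor of the cytokine TWEAK that rises in injured tubules, rose 2.64-fold, and Dusp9, a phosphatase that switches off MAP kinases, rose 2.78-fold. Tnfrsf12a read 7.21, 7.13, 6.64 and 7.67 in Air and 8.15, 8.68, 9.11 and 8.31 after PH3, an effect of 1.4 ± 0.24 (adjusted p = 0.0041). Dusp9 read 5.86, 5.73, 5.21 and 4.99 against 6.75, 7.32, 7.21 and 6.42, an effect of 1.48 ± 0.23 (adjusted p = 0.00143). In both the groups stayed apart, both calls held without any array, and both were lost with the 3 h groups alone (adjusted p = 0.173 and 0.133). Of 21 markers of tubule injury Tnfrsf12a alone was called, with a list median of 0.07. Of 11 other genes of MAP kinase feedback limma called 0, and 1 had an unadjusted p under 0.05.

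Cemip, which breaks down hyaluronan, read 5.82, 5.72, 6.25 and 6.51 in Air and 7.09, 7.41, 7.48 and 7.77 after PH3, an effect of 1.36 ± 0.22 (adjusted p = 0.00163). Tacc2, a protein of the centrosome and microtubules, read 9.40, 9.48, 9.14 and 9.30 against 10.50, 10.40, 10.45 and 9.98, an effect of 1.00 ± 0.11 (adjusted p = 8.5e-06). Neither gene had overlapping groups, and Tacc2 was among the 4 smallest p and held in every alternative tried. Cemip was lost with the 3 h groups alone (adjusted p = 0.0777).

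Ifitm10, of the family of interferon-induced transmembrane proteins, read 4.36, 4.17, 3.98 and 3.93 in Air and 5.25, 5.12, 5.69 and 5.03 after PH3. The groups did not overlap, with an effect of 1.16 ± 0.23 (adjusted p = 0.0173), lost without PH3 Rat363, Air Rat400 or Air Rat490 (adjusted p up to 0.0983). Of 14 genes of the interferon response limma called 0, also at an unadjusted p under 0.05, and their median was 0.04. Acta1, the actin of skeletal muscle, was near the floor in Air at 2.88, 3.00, 2.97 and 2.98 and read 3.63, 4.76, 3.68 and 3.63 after PH3. PH3 Rat361 stood well above the other 3, and the effect of 0.97 ± 0.18 (adjusted p = 0.00917) ran from 0.69 to 1.06 without single arrays, called throughout. It was lost with the rat as replicate block and with the 3 h groups alone (adjusted p = 0.326).

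Besides Stc1, 5 named genes fell. A4galt, which makes the glycolipid globotriaosylceramide, read 7.67, 8.15, 7.26 and 7.29 in Air and 6.90, 6.62, 6.36 and 6.49 after PH3, an effect of -1.0 ± 0.21 (adjusted p = 0.0225). The groups were apart, but the call was lost without Air Rat355 or Rat365 or PH3 Rat361, Rat363 or Rat399 (adjusted p up to 0.113). Ppp2r2b, a regulatory subunit of protein phosphatase 2A, read 6.74, 6.71, 6.61 and 6.46 against 5.93, 5.84, 5.63 and 6.03. That was the fall with the smallest p of a named gene (-0.77 ± 0.14, adjusted p = 0.00691), and it was lost without PH3 Rat363 (adjusted p = 0.0553) and with the rat as replicate block (adjusted p = 0.405).

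The remaining falls were in proteins of RNA processing and ubiquitin. Sfpq, a splicing factor, fell by 0.64 ± 0.13 (adjusted p = 0.0178), from 7.67, 7.77, 7.50 and 8.16 to 7.23, 7.28, 7.0 and 7.04. Pabpn1, which binds poly(A) tails in the nucleus, fell by 0.27 ± 0.059 (adjusted p = 0.0307), from 10.00, 10.06, 9.99 and 10.13 to 9.79, 9.74, 9.79 and 9.77. Usp21, which removes ubiquitin, fell by 0.32 ± 0.072 (adjusted p = 0.0445), from 7.61, 7.53, 7.59 and 7.53 to 7.29, 7.21, 7.25 and 7.23. In all 3 the arrays did not overlap, and for Pabpn1 and Usp21 the shift was small beside tight groups. The calls of Pabpn1 and Usp21 were lost without any array, and that of Sfpq without PH3 Rat363, PH3 Rat399 or Air Rat490 (adjusted p up to 0.129, 0.151 and 0.094).

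Other called genes are named by their effect, grouped after the calls were known by what each is known to do, with no test of any group. In the building of ribosomes, Pes1 rose by 0.37 ± 0.075 (adjusted p = 0.0215), from 7.46, 7.42, 7.36 and 7.57 to 7.85, 7.79, 7.86 and 7.79, and Nmd3, which exports the large subunit, by 0.40. Pes1 was the only called member of 17 genes of the nucleolus, of which 15 were positive with a median of 0.22. Of the 17, 11 had an unadjusted p under 0.05, against 3111 of 31042 over all probe sets. The call of Pes1 was lost without Air Rat355, Rat365 or Rat400 or PH3 Rat359, Rat361 or Rat363 (adjusted p up to 0.105). It was also lost with array medians subtracted and with the rat as replicate block. Srrm1, Rsrc2, Hnrnpdl and Ess2, which take part in RNA processing, rose by 0.27, 0.39, 0.54 and 0.43, while Sfpq of the same process was among the falls. Gabarapl1, which coats autophagosomes, and Optn, a cargo receptor of autophagy, rose by 0.50 and 0.39. Other probe sets of these genes were not called, the lowest at 0.10 for Hnrnpdl, -0.0003 for Srrm1 and 0.20 for Gabarapl1. Hnrnpdl and Gabarapl1 kept their call without any array, and Nmd3, Srrm1, Rsrc2, Ess2 and Optn lost it without PH3 Rat363 and other arrays (adjusted p up to 0.185).

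Further calls were of genes with unlike roles. Wwtr1, the coactivator TAZ of the Hippo pathway, rose by 0.62, Vcl, the adhesion protein vinculin, by 0.47, Dlg5, a scaffold of cell junctions, by 0.62, Kazn, of the cortical cytoskeleton, by 0.96, and Tubb2a, a beta-tubulin, by 0.64. The other probe set of Kazn was at 0.08 and was not called. Azin1, which spares the enzyme of polyamine synthesis, rose by 0.54 and 0.60 in 2 probe sets, and Tnfrsf21, a death receptor, by 0.44 in both of its sets. Secreted proteins comprised Bmp2 at 0.77, Angptl2 at 0.85, C1qtnf1 at 0.69 and Tinagl1 at 0.68. The other probe sets of Bmp2 and C1qtnf1 were at 0.31 and 0.44 and were not called. Trim63, a ubiquitin ligase best known from muscle, rose by 0.82. Dlg5, Kazn and Angptl2 kept their call without any array, while Vcl, Tubb2a, Azin1, Tnfrsf21, Bmp2, C1qtnf1 and Tinagl1 lost it without PH3 Rat363, and Wwtr1 and Trim63 without PH3 Rat361 (adjusted p up to 0.205 for Vcl). With the 3 h groups alone none of these genes passed, and with the rat as replicate block Kazn (adjusted p = 0.0309) and Tubb2a (0.0174) did.

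Over all probe sets limma called 0.303%, so in lists of this size 0 calls do not show that the genes were unchanged. Among genes of the mitochondria it called 0 members in each of several lists. These were cytochrome c oxidase (0 of 13, median -0.001), the other respiratory complexes and ATP synthase (0 of 24, median 0.01), mitochondrial chaperones (0 of 9, median 0.03), fatty acid oxidation (0 of 17, median 0.08) and the antioxidant genes of Nrf2 (0 of 13, median 0.10), with 1, 0, 1, 1 and 0 members at an unadjusted p under 0.05. First by p in each list came Cox10, which makes heme for the enzyme (0.18, adjusted p = 0.45), Uqcrc1, of the third complex (0.11, adjusted p = 0.531), Hspa9, a chaperone (0.20, adjusted p = 0.273), Pdk4, which spares glucose (0.56, adjusted p = 0.392), and Hmox1, which breaks down heme (0.74, adjusted p = 0.531). Acute inflammation (0 of 27, median -0.02), heat shock (0 of 15, median -0.04), metallothioneins and zinc transport (0 of 7, median -0.01) and the p53 response (0 of 14, median 0.08) also had 0 calls, with 2, 4, 2 and 2 members at an unadjusted p under 0.05. First by p there came Ccl3, a chemokine (-0.43, adjusted p = 0.417), Ahsa1, a cochaperone (-0.19, adjusted p = 0.291), Slc30a1, a zinc exporter (0.37, adjusted p = 0.207), and Cdkn1a, which stops the cell cycle (0.95, adjusted p = 0.266). Of 16 clock genes 0 passed, 3 of them at an unadjusted p under 0.05, with a median of 0.07, and Cry1, a repressor of the clock, came nearest (0.70 ± 0.17, adjusted p = 0.084).

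**Figure D3:**
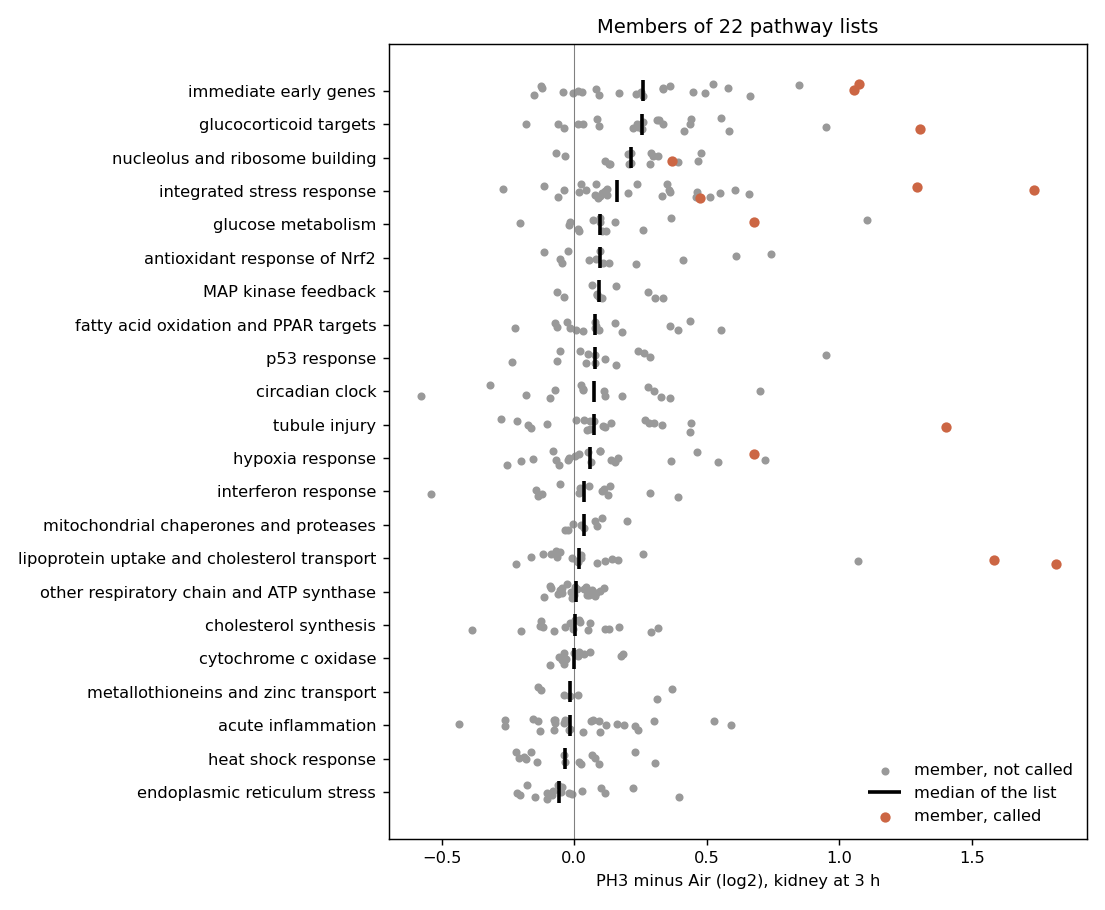
Each row is 1 of 22 pathway lists, each point a measured member at its kidney effect at 3 h (x axis, PH3 minus Air in log2 units), and the black bar the median. Called members are orange, and most lists centre near 0, with the highest medians in immediate early genes and glucocorticoid targets (0.26 each).

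The changes at 3 h were set against those of other times in the same fit, where no arrays are shared. At 1 h limma called 729 probe sets (2.35%; higher 1.51%, lower 0.841%), at 6 h 5 (0.0161%; higher 0.00966%, lower 0.00644%) and at 24 h 0 (0.0%; 1949 at an unadjusted p under 0.05). Of the 94 calls at 3 h, 42 were also called in the same direction at 1 h, 44.7% of the 3 h list and 5.76% of the 1 h list, and 0 were called in the opposite direction. The effect itself differed between 3 h and 1 h in 24 probe sets (0.0773%; the effect at 3 h higher in 0.029% and lower in 0.0483%), of which 3 were called at 3 h. Scarb1 was larger at 3 h than at 1 h, where it was 0.61 ± 0.12, by 0.97 ± 0.17 (adjusted p = 0.0185). Its second probe set gave a difference of 0.93 ± 0.22, which did not pass (adjusted p = 0.134). Nr4a1, at 2.76 ± 0.23 at 1 h, and the called probe set of Nr4a3, at 3.16, were smaller at 3 h, by differences of -1.71 ± 0.33 (adjusted p = 0.0334) and -2.32 ± 0.27 (adjusted p = 3.9e-05).

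Other early genes differed without a call at 3 h. Fosb was smaller at 3 h than at 1 h, by -2.64 (adjusted p = 3.9e-05). Atf3 differed by -2.31 (adjusted p = 0.00688). Srf, a factor that drives genes of the cytoskeleton, was at 0.85 at 1 h and 0.16 at 3 h, a difference of -0.70 (adjusted p = 0.0432). The glucocorticoid targets, of which 12 of 22 were called at 1 h with a median of 0.73, had 1 called at 3 h. None of them was among the probe sets whose effect differed between 3 h and 1 h. Fkbp5 was at 1.16 ± 0.17 at 1 h, with a difference of 0.14 ± 0.25 (adjusted p = 0.97). Olr1 and Dusp9 were at 0.33 and 0.14 at 1 h, neither called, but the difference from 3 h did not pass (1.48 ± 0.35, adjusted p = 0.147, and 1.34, adjusted p = 0.15). The 24 differences from 1 h were 5 without PH3 Rat359, 11 without Air Rat355, 13 without Air Rat365, 14 without PH3 Rat399 or Air Rat490, and 15 without PH3 Rat361 or Air Rat400. They were 2 with the groups compared alone and 6 with the rat as replicate block, 5 of them shared, and under the block Scarb1 and Nr4a1 (adjusted p = 0.714 each) and Nr4a3 (0.0748) did not pass.

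Against 6 h, the brighter set of Fkbp5 was the only probe set whose effect differed between 3 h and 6 h (0.00322% of those tested). It was at 1.30 against -0.37 ± 0.17, a difference of 1.68 ± 0.25 (adjusted p = 0.00727). That difference did not pass with the groups compared alone or with the rat as replicate block. The second set of Fkbp5 was at 0.25 ± 0.19 at 6 h, and its difference of 1.36 ± 0.27 did not pass (adjusted p = 0.246). Scarb1 and Gdf15 were still called at 6 h, at 0.88 ± 0.12 (adjusted p = 0.00103) and 1.29 ± 0.22 (adjusted p = 0.0195), and their differences from 3 h were 0.70 (adjusted p = 0.322) and 0.45 (adjusted p = 0.817).

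Against 24 h, 12 probe sets differed (0.0387%), all of them called at 3 h and all with the larger effect at 3 h. They named Fkbp5, Gdf15, Scarb1, Slc20a1, Tacc2, Tnfrsf21 and Pptc7, a mitochondrial phosphatase. With the rat as replicate block 10 differed, 5 higher and 5 lower, and 4 of the 12 were among them, those of Fkbp5 in both sets, Gdf15 and the brighter set of Scarb1. The effects at 24 h were -0.89 for Fkbp5, -0.44 for Gdf15, 0.12 for Scarb1, 0.04 for Slc20a1 and -0.003 for Tacc2, none called. Fkbp5 thus differed by 2.19 ± 0.25 (adjusted p = 3.2e-05) and Gdf15 by 2.17 ± 0.31 (adjusted p = 9.7e-04). Scarb1 differed by 1.46 ± 0.17 (adjusted p = 3.2e-05).

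**Figure D4:**
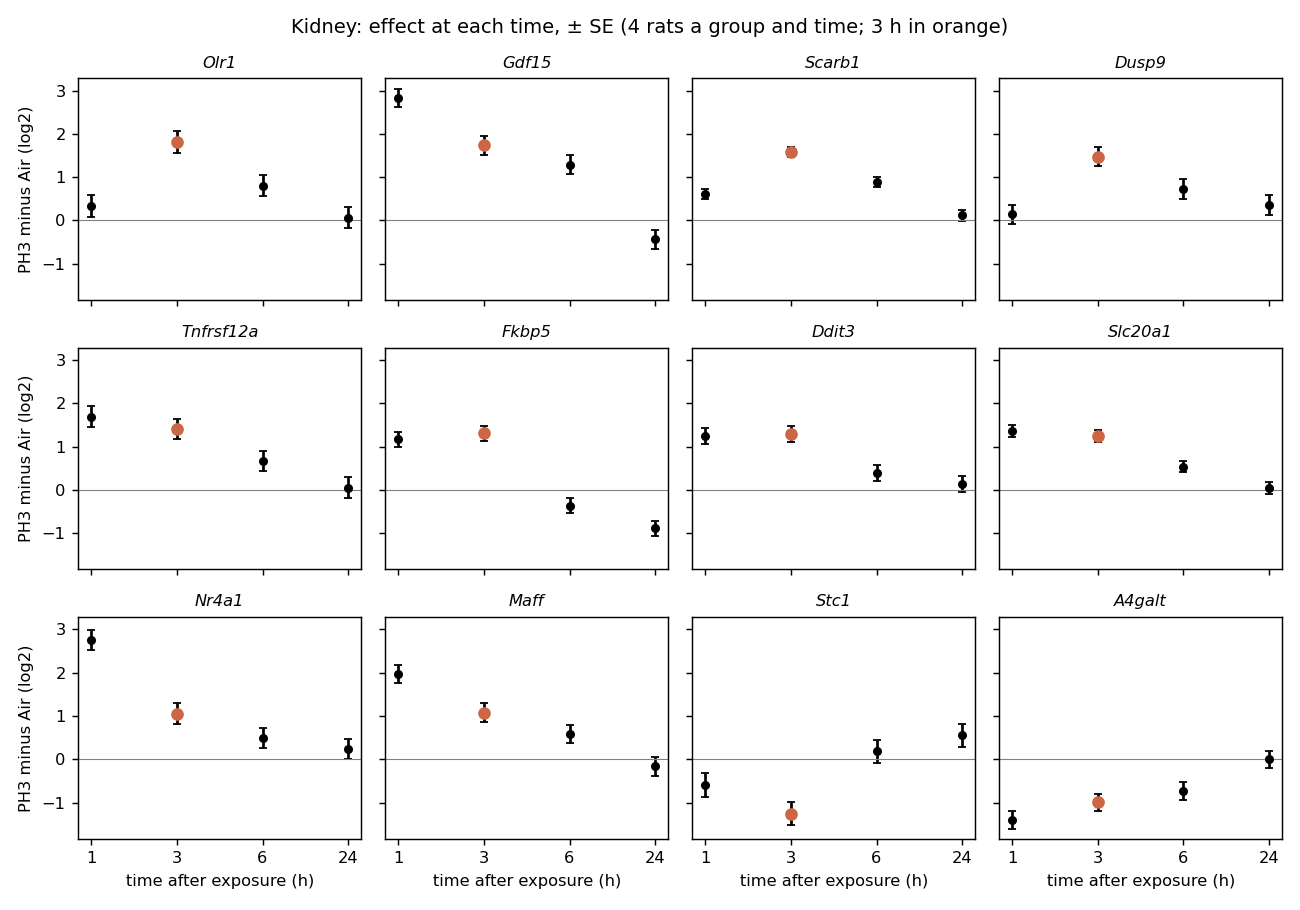
Each panel is 1 gene in the kidney, with the time after exposure in h on the x axis (unevenly spaced times at even steps) and PH3 minus Air in log2 units ± SE on the y axis, 4 rats a group and time. Nr4a1 and Gdf15 are highest at 1 h, Scarb1, Olr1 and Dusp9 at 3 h, and at 24 h the effect of Fkbp5 is -0.89.

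The same genes were read at 3 h in heart, lung and brain stem, mostly from the same rats. limma called 2 probe sets in heart (0.00644%), 3071 in lung (9.89%; higher 5.86%, lower 4.03%) and 5 in brain stem (0.0161%). The effect in kidney was larger than in heart for 3 probe sets (0.00966%), those of Olr1, Scarb1 and Tacc2. In heart Olr1 was at 0.15 ± 0.16, Scarb1 at 0.03 and Tacc2 at -0.01, and the kidney was higher by 1.67 ± 0.30 for Olr1 (adjusted p = 0.0162), by 1.55 ± 0.28 for Scarb1 (adjusted p = 0.0186) and by 1.01 ± 0.14 for Tacc2 (adjusted p = 8.0e-05). The second probe set of Scarb1 was at 0.13 in heart, and its difference of 1.30 ± 0.335 did not pass (adjusted p = 0.308). The kidney and brain stem effects differed in 18 probe sets (0.058%; the kidney higher in 0.0483% and lower in 0.00966%), 17 of them among the 94, including Gdf15, Olr1, Scarb1, Cemip, Tnfrsf12a, Dusp9, Ddit3, Slc20a1, Tacc2, Wwtr1 and Dlg5 on the higher side and Ppp2r2b and A4galt on the lower side.

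In lung, where many genes moved, 27 of the 94 had an effect that differed from the kidney's, among 486 differences over all probe sets (1.57%; the kidney higher in 0.615% and lower in 0.95%). These tests treat the tissues of a rat as independent. With the rat as replicate block, in 1 fit of all tissues, 6 probe sets differed from heart, 22 from lung and 7 from brain stem, of which 2, 22 and 6 were among those of the separate fits. Under the block Tacc2 no longer differed from heart (adjusted p = 0.175), and of the genes named for brain stem Olr1, Scarb1 and Cemip still passed. Against lung Gdf15, Cemip, Slc20a1, Scarb1, Tacc2 and, by its called set, Kazn still passed. Gdf15 was at -0.33 in lung and Slc20a1 at -0.35, and they differed by 2.06 ± 0.30 (adjusted p = 5.9e-05) and 1.59 ± 0.19 (adjusted p = 9.5e-07). Olr1 was at 0.80 ± 0.41 in lung and its difference from the kidney did not pass ( 1.02 ± 0.48, adjusted p = 0.305). Stc1 was at 0.26 in lung, a difference of -1.51 ± 0.33 (adjusted p = 0.0106; 0.133 under the block, where its second probe set passed).

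Fkbp5 also rose in lung and brain stem, and in heart by its second probe set. The brighter set was at 0.76 in heart (adjusted p = 0.131), 1.02 in lung (adjusted p = 0.02) and 0.87 in brain stem (adjusted p = 0.0217). The second set was at 1.22 in heart (adjusted p = 0.023), 1.15 in lung (adjusted p = 0.0261) and 0.78 in brain stem (adjusted p = 0.0346). In the brighter set the kidney effect was larger by 0.54 ± 0.23 than in heart, by 0.28 ± 0.33 than in lung and by 0.44 ± 0.22 than in brain stem. None of these differences passed. Maff also rose in lung, by 0.81 (adjusted p = 0.00435), as did Ddit3, by 0.53 (adjusted p = 0.00411).

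**Figure D5:**
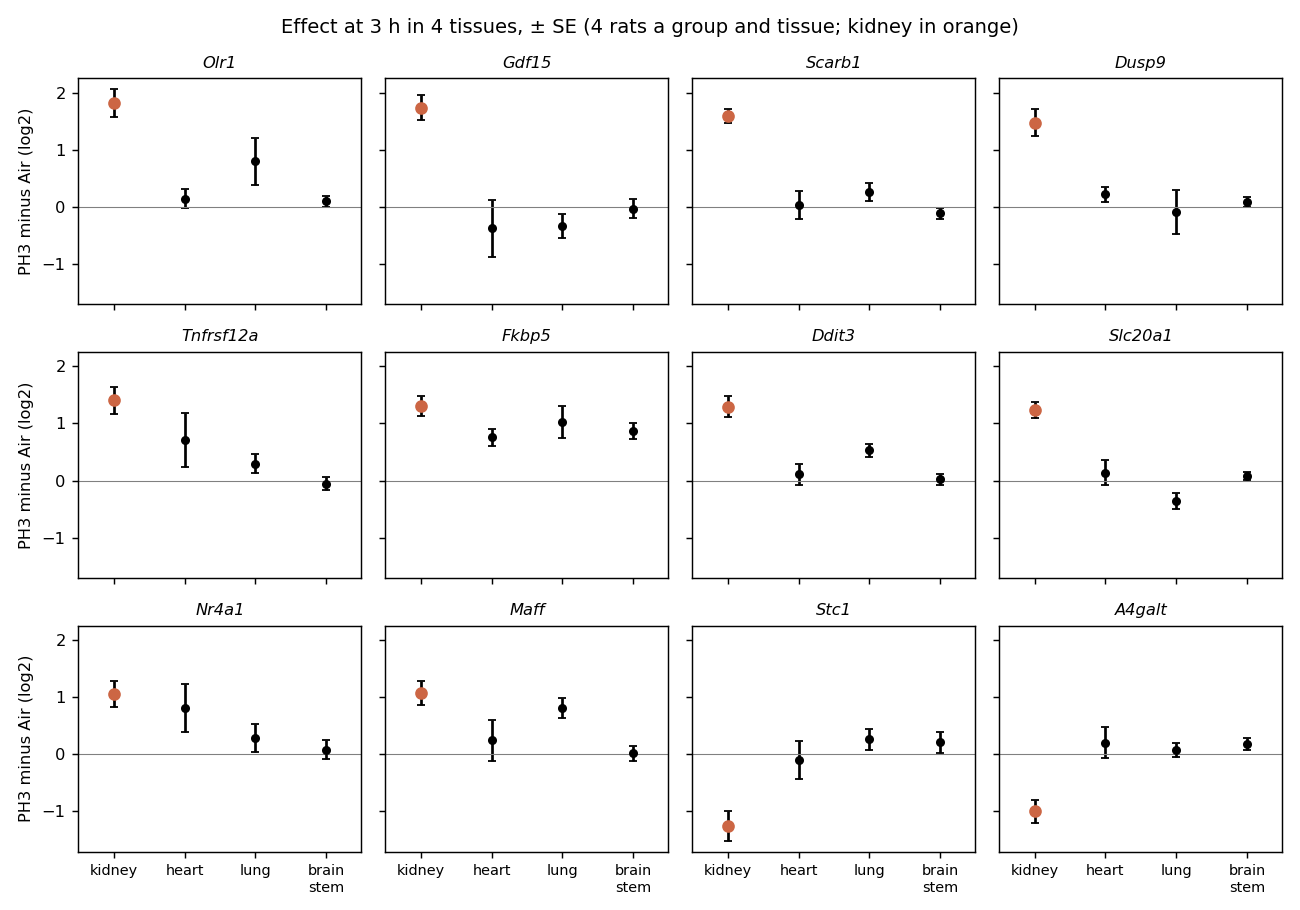
Each panel is 1 gene at 3 h, with the tissue on the x axis and PH3 minus Air in log2 units ± SE on the y axis, 4 rats a group and tissue. Olr1, Scarb1, Dusp9 and Slc20a1 are at 0.22 or less in heart and brain stem, while Fkbp5 lies between 0.76 and 1.30 in all 4 tissues.

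Over 17 lists of cell type markers limma called 0 of 129 entries, against 0.303% of all probe sets. An unadjusted p under 0.05 was found for 11 of the 129, against 3111 of 31042 over all probe sets. The list means of the proximal tubule ran from 10.06 to 10.98 in Air and from 10.28 to 10.89 after PH3. Within that list Slc5a2, the glucose transporter of its early segment, varied from kidney to kidney, with 5.53, 5.28, 9.58 and 9.83 in Air and 9.37, 7.26, 8.39 and 9.62 after PH3, and Slc5a12, a lactate transporter, moved with it (5.50, 4.26, 8.24 and 9.36 against 7.90, 6.73, 7.19 and 9.14). Rat355 and Rat365 of Air were the lowest in both, and neither gene was called. With Slc5a2 as a covariate, a setting chosen after the data were seen, 142 probe sets were called, 92 of the 94 among them, and Scarb1 was at 1.62 and Olr1 at 1.92. Of the genes described with their arrays, Usp21 no longer passed there (adjusted p = 0.0517).

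The adipocyte list had the highest median of these lists, 0.44, with 5 of 8 positive, 0 called and 1 at an unadjusted p under 0.05. Its mean ran from 5.63 to 6.44 in Air and from 6.32 to 6.66 after PH3, and Fabp4 of fat cells read 8.21, 7.36, 8.24 and 8.82 against 9.23, 8.77, 8.85 and 8.79. With these markers as a covariate, also chosen after the data were seen, 90 were called, 82 of the 94 among them, Scarb1 stayed at 1.52 and Olr1 at 1.79, and Stc1 no longer passed (adjusted p = 0.0576). Markers of the adrenal cortex, a tissue rich in Scarb1 that lies on the kidney, had list means of 4.06 to 4.40 in Air and 4.10 to 4.22 after PH3, those of the adrenal medulla 3.36 to 3.68 and 3.20 to 3.34, and 0 of 7 and 0 of 5 were called.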

How the data were processed

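Levels were read from the series' table of log2 intensities, which the authors made and deposited, 1 value per probe set and array. Per the submitters' processing notes the authors used RMA in Partek, with no version named. That method corrects background, gives all arrays 1 distribution of values and combines the probes of a set, and it compresses differences near the floor. No source used here says whether tissues were normalized jointly, so levels were compared within the kidney and only effects between tissues. After 97 control probe sets were left out, 31042 were tested with no filter, of which 19063 name 1 gene, 572 several and 11407 none by the platform annotation.

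The 32 kidney arrays, 8 groups of 4, entered 1 limma 3.58.1 fit in R 4.3.3 with a coefficient per group and no covariate. Tests were two-sided, adjusted by Benjamini-Hochberg, and called at an adjusted p under 0.05. Each array came from another rat number, so p-values measure the spread between rats. Differences between times were contrasts of that fit, and differences between tissues used the SE of separate fits after Welch and treat tissues of a rat as independent. On simulated arrays of this comparison with 31042 probe sets, 59.7% of changes of 0.5, 95.5% of changes of 1 and 100.0% of changes of 2 log2 units were called, with 10 false calls. The simulated noise was normal and independent between probe sets. These rates therefore do not cover variation that the probe sets of an array share. Arrays hold no counts, and their number limits the precision.

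A gene of a list is its brightest probe set; 518 of 581 list entries were measured. Values in every array are given for the 16 largest rises, the 8 largest falls (6 were found) and the 4 smallest p among called genes with non-overlapping arrays, and for up to 4 called members of each list; uncalled lists give 1 or 2 members by smallest p, and other genes are named by effect alone or were chosen after their values were seen. The comparison, the lists and the motifs were chosen with earlier results of these data known. Alternatives covered the groups fitted, scaling, a filter on dim probe sets, eBayes options, array weights, the 3′ index, other controls, the rat as block and each array left out. Rat numbers pair tissues of 1 animal but never PH3 with Air, and the consensus correlation of the block was 0.0168. The block fit gave all tissues 1 estimate of the spread. Promoters are RefSeq's on GRCr8; the deposited table holds no coordinates.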

Additional observations from a re-analysis of the deposited data

Results flagged for a closer look

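The effect at 3 h differed from that at another time for 8 comparisons of genes named by the rule. The brighter set of Scarb1 was larger than at 1 h by 0.97 and than at 24 h by 1.46, while its second set did not pass against 1 h. The brighter set of Fkbp5 was larger than at 6 h by 1.68 and than at 24 h by 2.19, while its second set did not pass against 6 h. Gdf15, Slc20a1 and Tacc2 were larger than at 24 h by 2.17, 1.19 and 1.00. Nr4a1 differed from 1 h by -1.71. With the rat as replicate block, those of Fkbp5, Gdf15 and Scarb1 from 24 h still passed and the others did not.

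Differences between kidney and heart at 3 h were 1.67 for Olr1, 1.55 for Scarb1 and 1.01 for Tacc2. Between kidney and lung they were 2.06 for Gdf15, 1.32 for Scarb1, 1.11 for Tnfrsf12a, 2.0 for Cemip, 1.59 for Slc20a1, 1.13 for Igfbp1, 1.12 for Tacc2 and 0.63 for Cars1, and on the lower side -1.51 for Stc1, -1.07 for A4galt and -0.39 for Usp21. Between kidney and brain stem they were 1.72 for Olr1, 1.77 for Gdf15, 1.70 for Scarb1, 1.39 for Dusp9, 1.46 for Tnfrsf12a, 1.98 for Cemip, 1.27 for Ddit3, 1.15 for Slc20a1 and 1.03 for Tacc2, and -1.18 for A4galt and -0.82 for Ppp2r2b. Each passed at an adjusted p under 0.05 over all probe sets in a test that treats tissues of a rat as independent. In that test the second set of Scarb1 did not pass against heart (1.30, adjusted p = 0.308). Against lung the other called sets of Cars1 did not pass (0.45, adjusted p = 0.12, and 0.11, adjusted p = 0.823). The last of these also rose in lung, by 0.51 (limma, adjusted p = 9.0e-04). With the rat as replicate block, those that still passed were Olr1 and Scarb1 against heart, Gdf15, Scarb1, Cemip, Slc20a1 and Tacc2 against lung, and Olr1, Scarb1 and Cemip against brain stem, while the others did not.

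In 3 of the 50 groups of 4 arrays checked, a kidney stood far from the other 3. They were PH3 Rat361 for Acta1 at 4.76, Air Rat400 for Pfkfb3 at 4.61 and PH3 Rat359 for Pfkfb3 at 4.54. Chance alone sets such a mark on about 1 group in 20.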

How the results depend on the processing

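The 94 calls at 3 h were 14 with the 3 h groups alone, 338 with the Air arrays of all 4 times as controls and 142 with Slc5a2 as a covariate, and 65 to 115 under the other settings apart from single arrays and the block. Without single arrays they ran from 32 to 93. The 24 differences from 1 h were 2 with the groups compared alone and 5 to 22 without single arrays, the 1 difference from 6 h was 0 with the groups alone and 1 without any single array, and the 12 from 24 h were 19 with array weights and 8 to 15 without single arrays. With the rat as replicate block, which pairs tissues and not PH3 with Air, the calls were 31 at 3 h (23 shared with the 94), 6, 0 and 10 for the differences from 1, 6 and 24 h (5, 0 and 4 shared), and 6, 22 and 7 for those from heart, lung and brain stem (2, 22 and 6 shared), against 3, 486 and 18. Among 445 values of the 25 named genes under the alternatives, 331 stayed on their side of the threshold, 114 lost the call and 0 reversed. Fkbp5, Olr1, Scarb1, Slc20a1 and Tacc2 kept it throughout, Olr1 not being among the brighter probe sets. Of 622 list medians 18 moved by more than their spread. The cause of these shifts was not tested. With 4 arrays a group, effects under about 0.5 log2 units were often not detectable.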

Other observations

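Of the 94 called probe sets, 23 have no gene name here. The largest of them rose by 1.41 ± 0.22 (adjusted p = 0.00158) and was at 0.85 at 1 h and 0.92 at 6 h. Another fell by 1.47 ± 0.27 (effect -1.47, adjusted p = 0.00875), which was the largest fall of all, and its call was lost without PH3 Rat363. Both also differed between kidney and brain stem, by 1.52 (adjusted p = 0.00475) and -1.43 (adjusted p = 0.0285). They were chosen after their values were seen.

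The order of the PH3 kidneys was counted over the called probe sets. Over the 81 called probe sets that rose, Rat399 was the lowest PH3 kidney in 48 and the highest in 6, while Rat361 and Rat363 were the highest in 32 and 31. Among the Air kidneys Rat365 was the highest in 33 and Rat400 the lowest in 27. These orders rest on probe sets chosen for their difference between the groups and carry no test.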
